A study of Mus musculus with 55 samples.

Results

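A set of 10 genes that mark mature granule neurons, the principal cells of the dentate gyrus, were examined in bulk RNA from the ventral dentate gyrus of 54 adult male C57BL/6J mice. These were *Prox1*, *Dsp*, *Calb1*, *C1ql2*, *C1ql3*, *Lct*, *Pdzd2*, *Il16*, *Tdo2* and *Maml2*. They were taken by name, as markers of the cell type, from 45318 genes in the count tables, with earlier results of these data known. All 10 passed the filter on low counts, which left 18283 genes tested. The mice were raised in standard housing (SH) or in an enriched environment (EE), a group cage with tunnels, objects and running wheels. Within each housing some mice went through chronic social defeat stress (CSDS), daily encounters with a larger aggressive mouse, and were then called resilient (RES) or susceptible (SUS) from a social interaction test. The groups held 10 SH controls, 7 RES and 10 SUS mice raised in SH, 9 EE controls, and 9 RES and 9 SUS mice raised in EE. All mice were of the same strain, and each gave its own tissue sample. They were reared in shared cages, with more mice per cage in EE, and the labels do not name the cage. The phenotype is a call from behavior after defeat, so the RES and SUS groups were sorted by outcome and not assigned.

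Granule neurons receive the cortical input of the hippocampus and send mossy fibers to hilar mossy cells and CA3 pyramidal cells. They are among the few neurons born throughout adult life, and calbindin is used to mark those that have matured. The transcription factor Prox1 specifies and maintains granule cell fate, and is made already in immature granule neurons. C1ql2 and C1ql3 are secreted C1q-like proteins that organize synapses, the former known from mossy fiber terminals. Calb1 (calbindin) buffers calcium. Dsp (desmoplakin) links desmosomes to intermediate filaments, Pdzd2 and the neuronal form of Il16 are PDZ-domain proteins, and Maml2 is a mastermind-like coactivator of Notch signaling. Tdo2 (tryptophan dioxygenase) and Lct (lactase) are enzymes that are better known from liver and intestine, and are used here as granule cell marker transcripts.

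Promoter sequence was available for 9 of the 10 genes from RefSeq (build GRCm38.p6), *Calb1* being the one without an entry. The 250 bases upstream of the annotated start are shown for *Dsp*, whose level differed with housing, for *Prox1*, the fate-determining factor, and for *Il16*, the gene that did not follow the others across mice. Capitals mark matches to TATAAA (the TATA box), CAGATG (an E-box of the type bound by NeuroD factors) or TGACGTCA (the cAMP response element), each searched on both strands. No 2 of these motifs overlap in the windows shown. The *Dsp* window is chr13:38151044-38151293 on the plus strand, the *Prox1* window is chr1:190170828-190171077 on the minus strand and the *Il16* window is chr7:83735540-83735789 on the minus strand. The *Il16* window lies upstream of a RefSeq start inside an intron of longer annotated transcripts. The *Dsp* window overlaps an exon of *Gm10129* and the *Prox1* window lies within *Prox1os*, both annotated on the opposite strand.
Dsp: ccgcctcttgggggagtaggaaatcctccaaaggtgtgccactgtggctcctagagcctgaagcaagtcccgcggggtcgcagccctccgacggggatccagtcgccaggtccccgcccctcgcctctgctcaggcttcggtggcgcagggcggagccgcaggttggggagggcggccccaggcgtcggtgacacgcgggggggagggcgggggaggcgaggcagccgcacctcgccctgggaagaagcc
Prox1: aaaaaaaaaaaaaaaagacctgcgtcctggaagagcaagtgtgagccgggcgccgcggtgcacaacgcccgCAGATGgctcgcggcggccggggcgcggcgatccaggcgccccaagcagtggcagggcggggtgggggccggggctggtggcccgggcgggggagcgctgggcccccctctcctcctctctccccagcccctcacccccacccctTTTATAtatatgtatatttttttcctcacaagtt
Il16: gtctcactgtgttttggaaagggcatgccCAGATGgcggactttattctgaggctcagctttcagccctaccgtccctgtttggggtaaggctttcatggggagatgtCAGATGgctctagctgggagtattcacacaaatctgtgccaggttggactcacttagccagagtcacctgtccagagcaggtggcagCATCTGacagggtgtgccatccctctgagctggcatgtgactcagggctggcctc

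The *Dsp* window held none of the 3 motifs. The *Prox1* window held a TATA box match that began 34 bases before the start, on the opposite strand, and an E-box match 179 bases before it. The *Il16* window held 3 E-box matches, at 221, 142 and 55 bases before the start. Of 32851 promoter windows of the same length, 12.4% held TATAAA, 14.4% held CAGATG and 1.55% held TGACGTCA. Only 1 window per gene was searched, while 2 were available for *Prox1* and *Maml2* and 3 for *Il16*. No member window searched held the cAMP response element, and the windows of *C1ql2*, *C1ql3*, *Lct*, *Pdzd2* and *Maml2* held none of the 3 motifs. The *Tdo2* window held a TATA box match 229 bases before its start. These matches describe letters in a window and were not related to the levels below.

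Gene counts ranged from 16760009 to 45872357 per mouse, with a median of 21552884. The highest was the EE control that had been sequenced in 2 runs, which were summed. The 10 genes were well covered, from a lowest count of 295 (*Tdo2*) to a highest count of 8917 (*Calb1*) in any mouse. Each of the 10 genes was counted in all 54 mice, and all 20 genes of a companion list of granule cell markers also passed the filter. Markers known from ventral granule cells were present too. *Trhr* ranged from 11.1 to 39.8 CPM (read counts scaled to library size by TMM factors) and *Nr2f2* from 10.6 to 22.6 CPM. In 6 mice the summed level of 6 choroid plexus markers was over 100 CPM, from 180.1 to 973.7 CPM, against a median of 21.4 CPM over all mice. These were replicate 3 of the SH controls, replicates 3 and 7 of the SUS mice raised in SH, and 1 mouse of each EE group. The EE mice were replicate 9 of the controls and replicate 3 of the RES and of the SUS mice. The number 3 thus recurred across groups, and the labels do not say what it stands for. The housing differences over all phenotypes and the correlations among members and with marker sums are given with and without these 6 mice.

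Corrected for exon length, the 10 genes spanned a wide range. *C1ql3* was the most abundant at 67.7 ± 11.6 CPM per kilobase (SD, n = 54), followed by *Calb1* at 54.1 ± 8.69 and *C1ql2* at 53.4 ± 10.3 CPM per kilobase. *Lct* stood at 18.3 ± 3.58, *Prox1* at 16.8 ± 3.06 and *Dsp* at 11.8 ± 2.70 CPM per kilobase. *Il16* followed at 9.35 ± 1.04, *Tdo2* at 6.37 ± 1.28, *Maml2* at 5.30 ± 0.808 and *Pdzd2* at 2.85 ± 0.418 CPM per kilobase. The order was kept mouse by mouse for most neighbors. *C1ql2* was above *Lct*, *Prox1* above *Dsp*, and *Maml2* above *Pdzd2* in 54 of 54 mice. The neighbors that were not separated were *Calb1* and *C1ql2*, in that order in 36 of 54 mice, and *Lct* and *Prox1*, in that order in 37 of 54. The length used is the union of all annotated exons, so a gene with a long rarely used exon is understated. Among mice, the coefficient of variation ran from 11.1% for *Il16* to 22.8% for *Dsp*.

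The first question was whether the level of these genes differed with housing. Averaged over the 3 phenotypes, *Dsp* and *Tdo2* were lower in mice raised in EE than in mice raised in SH, and all 10 genes had a negative estimate. For *Dsp* the SH mice ran from 82.8 to 166.8 CPM with a median of 124.6, and the EE mice from 65.9 to 158.8 CPM with a median of 101.7. The housings overlapped, with 8 of 27 EE mice under the lowest SH mouse and 3 of 27 SH mice above the highest EE mouse. *Dsp* was lower in EE by a log2 fold change of -0.30 (SE 0.079, edgeR quasi-likelihood test, adjusted p = 0.0281), a difference of -18.9%. For *Tdo2* the SH mice ran from 19.3 to 34.5 CPM with a median of 27.6, and the EE mice from 13.6 to 31.6 CPM with a median of 24.0. Here 24 of 27 EE mice lay under the SH median, and the log2 fold change was -0.28 (SE 0.070, edgeR adjusted p = 0.0214), a difference of -17.5%. In this comparison edgeR called 2.42% of all genes tested, and 1.54% as lower in EE. The members called were 2 of 10, both lower.

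By group, the *Dsp* median was 122.8 CPM in SH controls, 119.3 in RES and 127.0 in SUS mice raised in SH, against 109.2 in EE controls, 91.4 in RES and 101.7 in SUS mice raised in EE. The *Tdo2* median was 27.1 CPM in SH controls, 28.6 in RES and 27.2 in SUS mice raised in SH, and 25.5, 21.0 and 22.8 CPM in the respective EE groups. For both genes every EE median was under every SH median, while the ranges of all 6 groups overlapped.

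**Figure D1:**
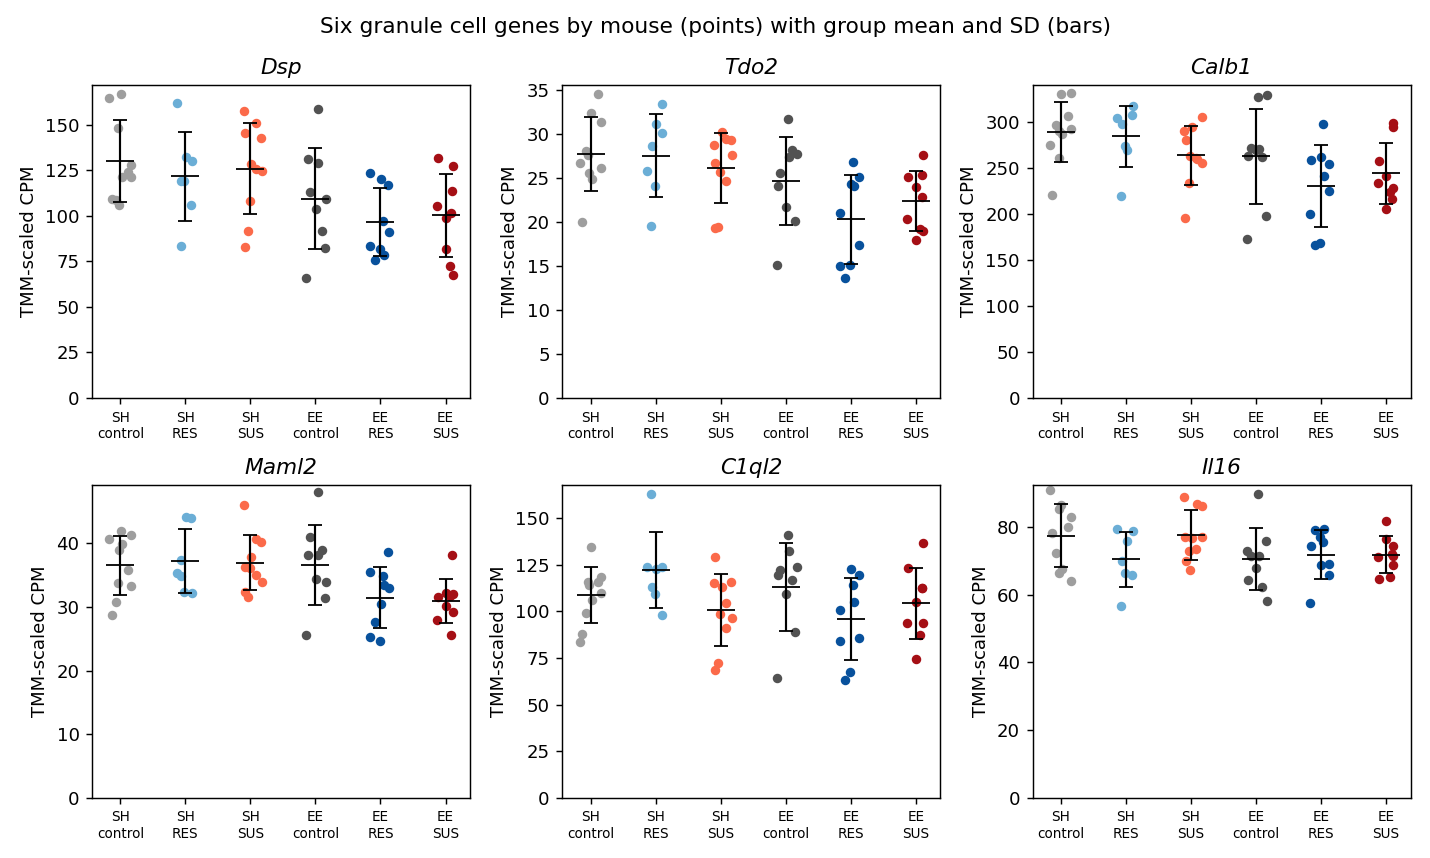
TMM-scaled CPM of 6 member genes (vertical axes, from 0) in the 6 groups of mice (horizontal axes), with 1 point per mouse and the group mean and SD as black bars. The EE groups sit lower than the SH groups for *Dsp* and *Tdo2* with wide overlap, the *Maml2* medians of the defeated EE groups are 33.0 and 31.6 CPM, and *Il16* runs from 56.6 to 90.8 CPM over all mice.

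The other 8 genes did not pass the adjusted threshold for housing. *Calb1* had a log2 fold change of -0.18 (SE 0.058, edgeR adjusted p = 0.0715) and *Maml2* of -0.17 (SE 0.052, edgeR adjusted p = 0.0706). *Calb1* ranged from 195.2 to 331.6 CPM in SH mice, with a median of 286.7, and from 166.3 to 328.7 CPM in EE mice, with a median of 254.4. *Maml2* ranged from 28.8 to 46.0 CPM in SH mice, with a median of 36.0, and from 24.7 to 48.1 CPM in EE mice, with a median of 32.2. Both were called by DESeq2 (adjusted p = 0.0427 for *Calb1* and 0.0436 for *Maml2*), which called 4 of 10 members and 3.72% of all genes. *Lct* had a log2 fold change of -0.18 (SE 0.074), *C1ql3* of -0.14 (SE 0.065), *Prox1* of -0.12 (SE 0.067) and *C1ql2* of -0.08 (SE 0.073). The smallest estimates were those of *Il16* at -0.07 (SE 0.041) and *Pdzd2* at -0.02 (SE 0.057), whose 95% interval ran from -0.13 to 0.10. At an unadjusted p under 0.05 edgeR counted 6 of 10 members, all lower in EE, where 17.6% of all genes reached it. The median estimate of the 10 genes was -0.15, against 0.004 over all genes, of which 47.0% had a negative estimate. Most members varied together over mice, as given below, so counts and signs of members, in this and every contrast, are not independent. No member met the study's criterion of an unadjusted limma p under 0.05 with a fold over 1.3, which 0.613% of all genes met.

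These values rest on RNA of a whole punch, so fewer granule cells and less of each transcript per cell cannot be told apart. Oligodendrocyte markers had estimates of the opposite sign, and they were not alone. All 5 thalamus, all 5 CA1 pyramidal and all 3 general neuronal markers were positive for EE, with medians of 0.17, 0.09 and 0.03. So were 5 of 6 choroid plexus, 4 of 5 interneuron, 3 of 5 astrocyte and 3 of 4 microglia markers. The count was 3 of 6 for CA2 and CA3 pyramidal, 2 of 5 for immature granule neuron, 1 of 5 for mossy cell and 0 of 5 for blood markers. The summed level of 5 oligodendrocyte markers, among them the myelin genes *Mbp* and *Mag*, had a median of 1136 CPM in SH mice (863.4 to 2122) and of 1405 CPM in EE mice (902.0 to 1973). By group its median was 1258 CPM in SH controls, 1083 in RES and 1091 in SUS mice raised in SH, and 1198, 1316 and 1601 CPM in the respective EE groups. All 5 oligodendrocyte markers had a positive estimate for EE, with a median of 0.27, and edgeR called 2 of them higher. *Mbp*, which encodes a major myelin protein, was one of these (log2 fold change 0.25, SE 0.073, edgeR adjusted p = 0.0468), and *Mag* had a log2 fold change of 0.27 (SE 0.084, edgeR adjusted p = 0.0706).

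With the summed levels of oligodendrocyte, CA1 pyramidal, thalamus and choroid plexus markers as covariates, an alternative added after seeing the data, no member was called for housing by edgeR. The estimate of *Dsp* was then -0.16 (SE 0.071, adjusted p = 0.427) and that of *Tdo2* was -0.13 (SE 0.054, adjusted p = 0.398). The number of genes called fell from 442 to 41, or 0.224% of those tested, and 3 members and 10.4% of all genes had an unadjusted p under 0.05. Estimates for *Prox1* (0.02), *C1ql2* (0.10) and *Pdzd2* (0.04) turned positive, and that of *Il16* was -0.06. Without the 6 mice with choroid plexus markers, *Dsp* (-0.31, SE 0.082, adjusted p = 0.0279) and *Tdo2* (-0.28, SE 0.071, adjusted p = 0.0216) remained called by edgeR, against 2.88% of all genes. With each mouse left out in turn, *Tdo2* was called in 54 of 54 fits and *Dsp* in 53 of 54. The exception was the fit without replicate 7 of the RES mice raised in SH, where *Dsp* had a log2 fold change of -0.28 (edgeR adjusted p = 0.0529).

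**Figure D2:**
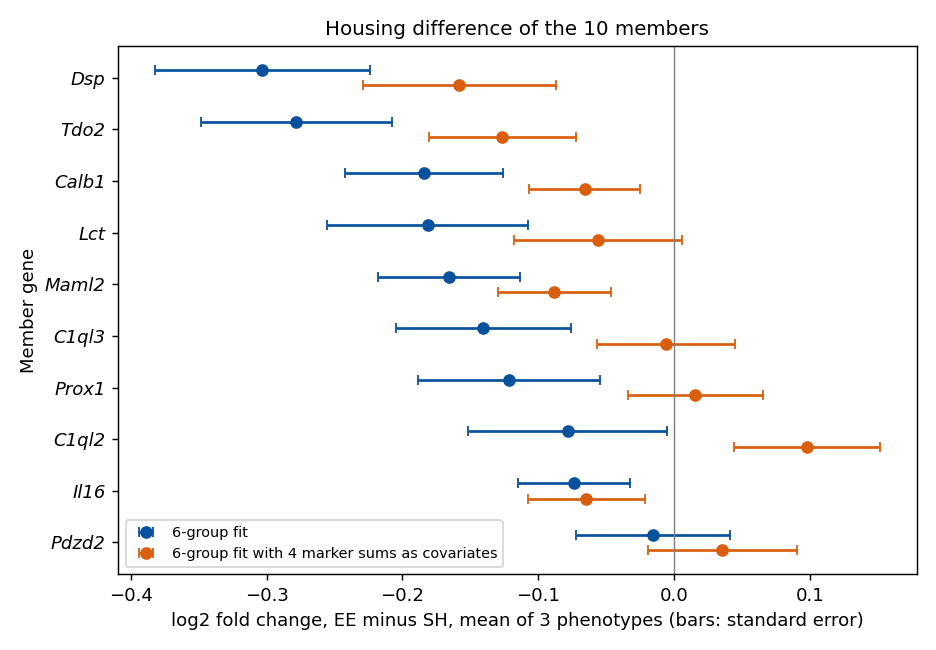
Log2 fold change of EE minus SH (horizontal axis) for the 10 members (vertical axis), with standard errors as bars, in the 6-group fit and in the fit with 4 summed marker levels as covariates. All 10 estimates are negative in the 6-group fit, from -0.30 for *Dsp* to -0.02 for *Pdzd2*, and 7 of 10 remain negative with the covariates.

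Other genes known to be enriched in granule cells were examined beside the set. They too were chosen with earlier results of these data known. Of the companion list of 20 genes, all tested, 4 were called by edgeR for housing, all lower in EE, and 16 had a negative estimate, with a median of -0.11. *Npnt* (nephronectin, an extracellular matrix protein) ran from 29.0 to 53.1 CPM in SH mice and from 24.0 to 55.1 CPM in EE mice. Its log2 fold change was -0.33 (SE 0.061, edgeR adjusted p = 0.00135), with 26 of 27 EE mice under the SH median. *Fam163b* (-0.27, SE 0.072, edgeR adjusted p = 0.0341), *Lrrtm4* (-0.19, SE 0.053, edgeR adjusted p = 0.0438), a synaptic adhesion protein, and *Ahcyl2* (-0.15, SE 0.037, edgeR adjusted p = 0.0150) were the others. With the marker covariates 2 of the 20 were called, *Npnt* and *Plk5*, against 0.224% of all genes, and *Plk5* had a positive estimate of 0.11 in the fit without covariates. Without the mice with choroid plexus markers 6 were called, against 2.88% of all genes.

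Housing was then compared within each phenotype, in fits that share the estimate of spread but not the mice. Among RES mice 9 of 10 members had a lower mean in EE, with estimates from -0.44 to 0.03 and a median of -0.29. edgeR called no member at the adjusted threshold, where it called 0.273% of all genes. At an unadjusted p under 0.05 it counted 7 of 10 members, all lower in EE, against 16.0% of all genes. *Tdo2* was the largest of these at -0.44 (SE 0.13, edgeR adjusted p = 0.0869). RES mice raised in SH ran from 19.5 to 33.3 CPM for *Tdo2*, and RES mice raised in EE from 13.6 to 26.8 CPM, so the groups overlapped. DESeq2 called *Tdo2* (adjusted p = 0.0470), 1 of 10 members, and 1.34% of all genes. *Tdo2* also met the study's criterion, which 3.24% of all genes met. *C1ql2* (-0.35, SE 0.13), *Dsp* (-0.33, SE 0.15), *Prox1* (-0.31, SE 0.12), *Calb1* (-0.30, SE 0.11), *C1ql3* (-0.28, SE 0.12) and *Maml2* (-0.24, SE 0.096) were the other 6. Of the companion list, *Npnt* was called (-0.53, SE 0.11, edgeR adjusted p = 0.0268).

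Among SUS mice 9 of 10 estimates were negative, from -0.33 to 0.06 with a median of -0.11. No member was called at the adjusted threshold by edgeR, where 0.00547% of all genes were. *Maml2* (-0.26, SE 0.088) and *Dsp* (-0.33, SE 0.13) were the 2 members at an unadjusted p under 0.05, against 7.36% of all genes. Among control mice 6 of 10 estimates were negative, from -0.25 to 0.06 with a median of -0.08. Here edgeR called no member, and 0.00547% of all genes, at the adjusted threshold. It counted 0 of 10 members, and 5.02% of all genes, at an unadjusted p under 0.05. *Dsp* was similar in the 3 phenotypes, with -0.25 (SE 0.13) in controls, -0.33 in RES and -0.33 in SUS mice. *Maml2* was 0.00 (SE 0.087) in controls, -0.24 in RES and -0.26 in SUS mice.

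**Figure D3:**
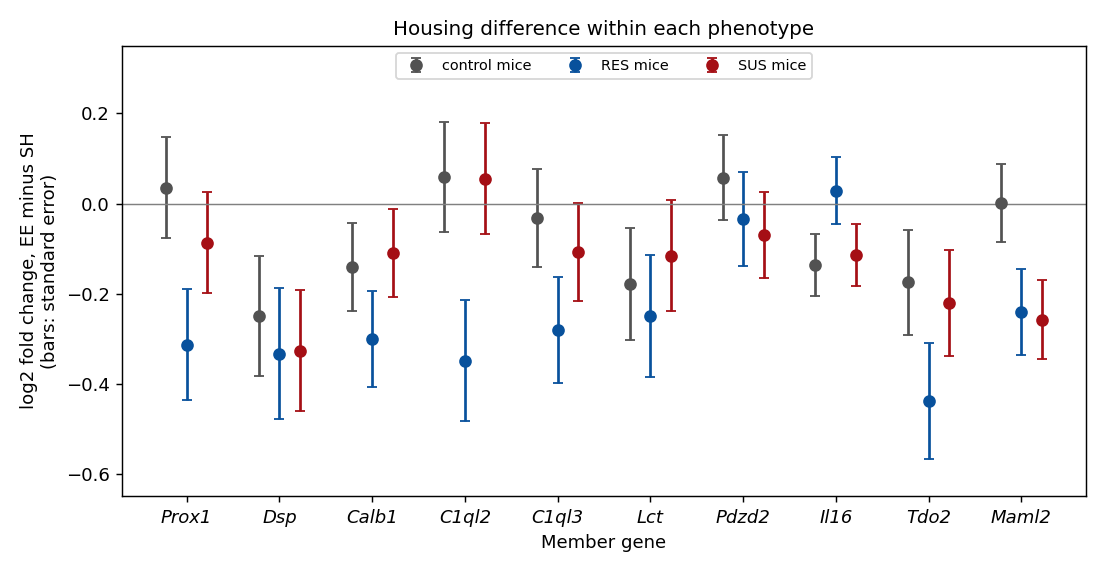
Log2 fold change of EE minus SH (vertical axis) for each member (horizontal axis) in control, RES and SUS mice, with standard errors as bars. The RES estimates run from -0.44 for *Tdo2* to 0.03 for *Il16*, while the control estimates lie between -0.25 and 0.06.

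Whether the effect of defeat depended on housing was tested by an interaction. No member was called by edgeR at the adjusted threshold for the defeat-control difference by housing, and 0% of all genes were. *Maml2* was the 1 member of 10 with an unadjusted p under 0.05, against 6.47% of all genes, with an interaction of -0.25 (SE 0.11, edgeR adjusted p = 0.756). Its medians were 37.4 CPM in SH controls, 35.4 in RES and 36.1 in SUS mice raised in SH, and 38.1, 33.0 and 31.6 CPM in the respective EE groups. The ranges of the 6 groups overlapped. The other 9 interaction estimates for defeat had adjusted p-values at or above that of *Maml2*.

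The study's central contrast, SUS against RES, was then taken in each housing. In SH no member was called by edgeR at the adjusted threshold, where 0% of all genes were. *C1ql2* was the 1 member of 10 with an unadjusted p under 0.05, against 4.88% of all genes, and 0 of 10 members met the study's criterion, which 1.14% of all genes met. *C1ql2* ran from 68.5 to 129.0 CPM in SUS mice of this housing (median 101.8), and from 98.0 to 163.0 CPM in the RES mice (median 122.7). The log2 fold change of SUS against RES was -0.28 (SE 0.13, edgeR adjusted p = 0.934). The RES mean was 122.1 ± 20.4 CPM (SD, n = 7), and 115.3 ± 10.5 CPM (SD, n = 6) without the highest mouse, replicate 5, against 100.6 ± 19.3 CPM (SD, n = 10) in SUS mice. The other 9 members lay between that estimate and 0.14.

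In EE no member was called for SUS against RES by edgeR at the adjusted threshold (0% of all genes). At an unadjusted p under 0.05 it counted 0 of 10 members, against 3.52% of all genes. None of the 10 met the study's criterion, against 1.10% of all genes. Estimates ran from -0.03 to 0.14 with standard errors from 0.071 to 0.14. *C1ql2* ran from 74.6 to 136.7 CPM in SUS and from 63.0 to 122.7 CPM in RES mice raised in EE. The SUS-RES difference by housing was not called for any member by edgeR (0% of all genes). *C1ql2* was the 1 of 10 with an unadjusted p under 0.05 (4.84% of all genes) and also met the study's criterion (2.29% of all genes). Its interaction was 0.40 (SE 0.18, edgeR adjusted p = 0.977).

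Defeated mice were compared with controls in the same way. Across both housings all 10 estimates were negative, from -0.12 to -0.02 with a median of -0.09, against -0.003 over all genes. None was called by edgeR at the adjusted threshold, where 0.0438% of all genes were. It counted 0 of 10 at an unadjusted p under 0.05, against 4.81% of all genes. In SH, RES mice differed from controls by -0.14 to 0.17 and SUS mice by -0.13 to 0.05. For RES mice 0 of 10 members were called at the adjusted threshold by edgeR (0% of all genes) and 0 at an unadjusted p under 0.05 (3.51% of all genes). For SUS mice 0 of 10 were called at the adjusted threshold (0.0328% of all genes) and 0 at an unadjusted p under 0.05 (2.78% of all genes).

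In EE, 9 of 10 members had a lower mean in RES mice than in controls, with a median of -0.20, and 9 of 10 in SUS mice, with a median of -0.12. These 2 comparisons share the EE controls. edgeR called no member at the adjusted threshold for RES (0% of all genes) or SUS mice (0% of all genes). *Prox1* (-0.28, SE 0.12), *Tdo2* (-0.27, SE 0.12) and *Maml2* (-0.22, SE 0.090) were the 3 members with an unadjusted p under 0.05 for RES mice, against 7.91% of all genes. *Maml2* (-0.24, SE 0.090) was the 1 member for SUS mice, against 7.90% of all genes. *Prox1* ran from 79.6 to 210.2 CPM in EE controls, with a median of 151.8, and from 96.5 to 156.0 CPM in RES mice raised in EE, with a median of 117.6. The lowest and the highest *Prox1* level of all 54 mice were thus both in EE controls. In the test for any difference among the 6 groups, edgeR called no member (0.350% of all genes), and *Dsp*, *Calb1*, *Tdo2* and *Maml2* were the 4 of 10 with an unadjusted p under 0.05 (11.1% of all genes).

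Levels also varied among mice of the same group, and most of the genes varied together. Across 54 mice, 36 of the 36 pairs that do not include *Il16* were positively correlated on the log2 scale, with Spearman's rho from 0.28 to 0.86 (median 0.62) and Pearson's r from 0.33 to 0.91. All 36 passed Benjamini-Hochberg adjustment over the 45 pairs by either coefficient (permutation test, two-sided, 100000 resamples). Over all 45 pairs 38 passed. *Il16* was set apart for its correlations in these same mice. No share of all gene pairs that pass is set beside these counts, so they are a description of the set. Leaving out the 2 mice farthest from the median of one gene left r between 0.30 and 0.88. After the mean of each group was removed, rho ran from 0.27 to 0.84 and 35 of the 36 passed. The exception was *Pdzd2* with *Tdo2*, whose rho of 0.28 was close to the threshold (adjusted permutation p = 0.0496) and was 0.27 within groups (adjusted permutation p = 0.0553). Without the 6 mice with choroid plexus markers, rho ran from 0.14 to 0.85 over 48 mice and 34 of the 36 passed by rho, 35 by r. These levels share a library and a punch, so any mouse-to-mouse variation in the share of granule cell RNA enters all of them at once.

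The closest pair was *Calb1* and *Tdo2*, with r = 0.91 and rho = 0.86 (permutation p = 1e-05 for each, the smallest the resamples can give, adjusted p = 1.67e-05 for r and 1.96e-05 for rho). Without the 2 mice farthest from the *Calb1* median r was 0.88, and within groups rho was 0.84. By rho, *Dsp* and *Lct* followed with r = 0.80 (0.77 without the 2 mice farthest from the *Dsp* median) and rho = 0.81, and 0.77 within groups. The paralogs *C1ql2* and *C1ql3* had r = 0.80 (0.74 without the 2 mice farthest from the *C1ql2* median) and rho = 0.80, and 0.73 within groups. By r, the second pair was *Calb1* and *C1ql3*, with r = 0.84 (0.81 without the 2 mice farthest from the *Calb1* median) and rho = 0.79. These 3 pairs had the same permutation p as the first.

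*Il16* did not follow the set. Its 9 pairs had rho from -0.17 to 0.44 with a median of 0.14, and 2 passed adjustment. These were *Lct* (r = 0.43, rho = 0.44, adjusted permutation p = 0.00136 for rho) and *Dsp* (r = 0.39, rho = 0.34, adjusted permutation p = 0.0148 for rho). Its estimates with *C1ql2* (rho = -0.17) and *C1ql3* (rho = -0.12) were negative. Its level ran from 56.6 to 90.8 CPM, and its coefficient of variation was the lowest of the 10. Reads over *Il16* depend on the strand of counting, as 67.5% of its count was kept when strand was ignored, and 37.7% for *C1ql3*, while the other 8 genes kept 97.3% to 102.2%. With strand ignored, the pairs with *Il16* still had rho from -0.16 to 0.44. Without the 6 mice with choroid plexus markers they had rho from -0.10 to 0.57, and 3 of 9 passed by rho, 4 by r.

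**Figure D4:**
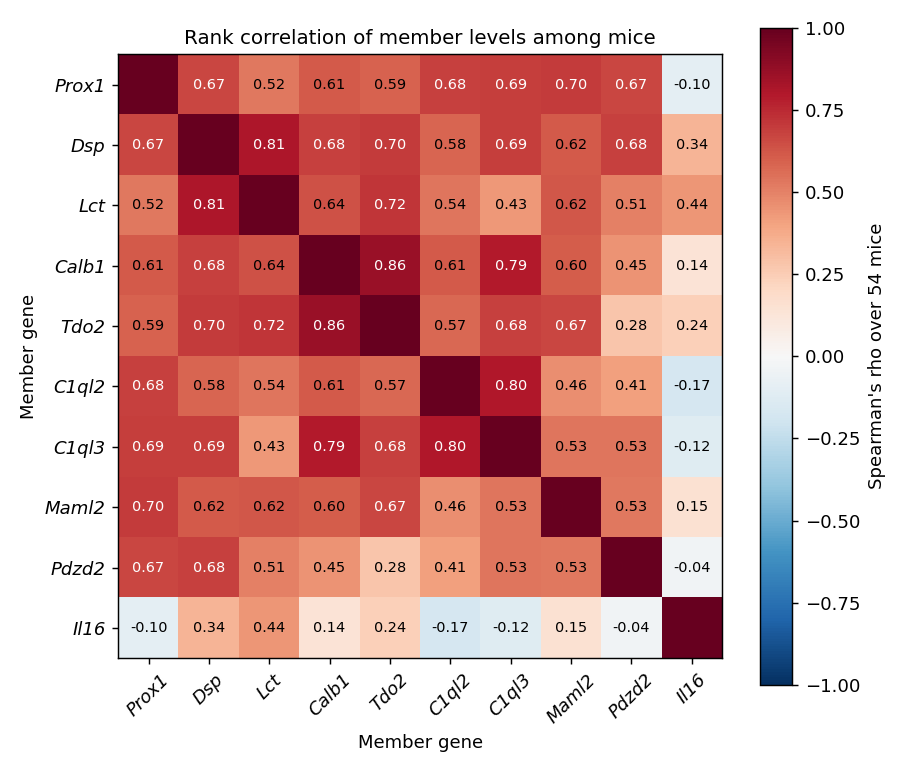
Spearman's rho between the log2 levels of each pair of members over 54 mice, with genes on both axes and color from -1 to 1. The block of 9 genes is positive throughout, from 0.28 to 0.86, and the *Il16* row and column run from -0.17 to 0.44.

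The mice at the ends of the range were largely the same for different genes. Replicate 5 of the EE controls had the lowest level of 4 genes and was among the lowest 5 mice for 9 of 10. Replicate 8 of the RES mice raised in EE had the lowest level of 3 genes and was among the lowest 5 for 8 of 10. Replicate 3 of the same group and replicate 3 of the SUS mice raised in SH were among the lowest 5 for 5 genes each, and both had choroid plexus markers over 100 CPM. The oligodendrocyte marker sums of these 4 mice were 1784, 1746, 1752 and 2122 CPM, in the order named. At the high end, replicate 8 of the EE controls and replicate 1 of the SH controls were each among the highest 5 mice for 9 of 10. Their oligodendrocyte marker sums were 902.0 and 1021 CPM. A high marker sum did not go with low levels of every member. Replicate 10 of the SH controls, with a sum of 1823 CPM, had the highest level of 3 members, *Lct*, *Pdzd2* and *Il16*. It was among the highest 5 mice for 4 members. The same mouse had the lowest *C1ql2* (83.9 CPM) and *C1ql3* (156.8 CPM) of the SH controls.

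Over all mice, the 9 genes other than *Il16* were negatively correlated with the oligodendrocyte marker sum. Spearman's rho ran from -0.70 (*C1ql3*) to -0.43 (*Pdzd2*) and Pearson's r from -0.72 to -0.42, with adjusted permutation p-values up to 0.00527 for rho and 0.00530 for r over 120 relations. Without the 2 mice farthest from the median marker sum r ran from -0.68 to -0.36, and within groups rho ran from -0.69 to -0.43. Without the 6 mice with choroid plexus markers rho ran from -0.63 to -0.32, and 8 of the 9 passed by rho and 9 by r. For *Dsp* rho was -0.59 and for *Tdo2* -0.61, and for *Il16* it was 0.07. Their part in the housing difference was not tested beyond the fit with covariates given above.

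**Figure D5:**
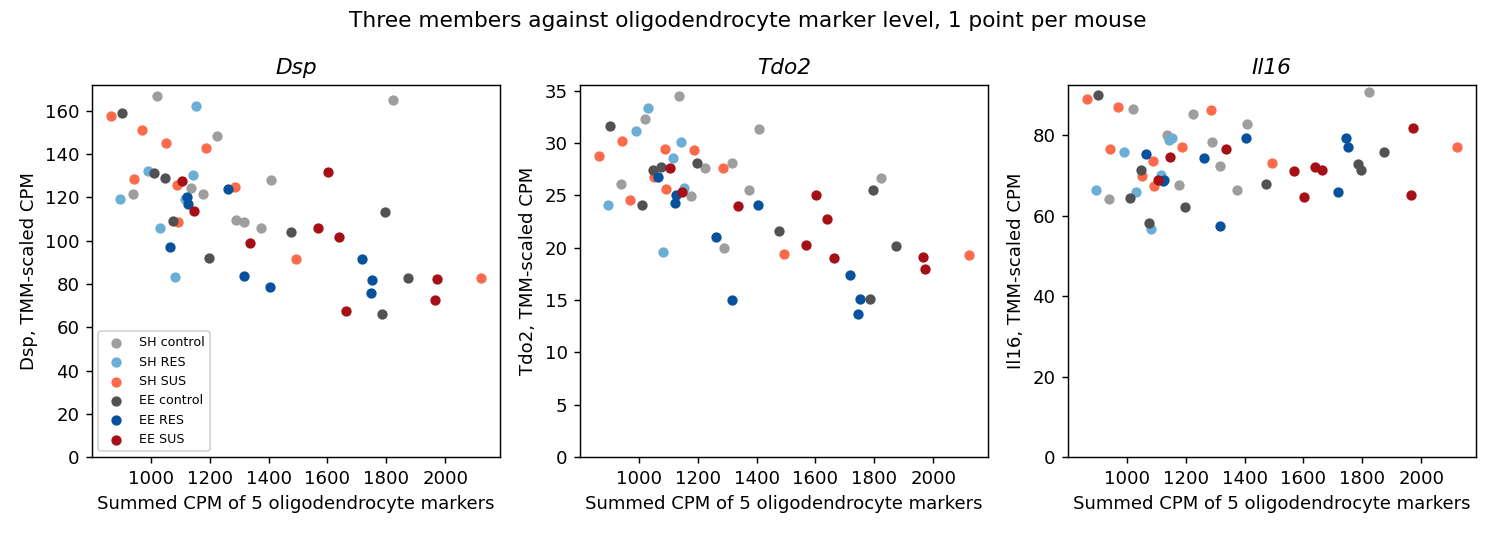
TMM-scaled CPM of *Dsp*, *Tdo2* and *Il16* (vertical axes, from 0) against the summed CPM of 5 oligodendrocyte markers (horizontal axes), with 1 point per mouse colored by group. *Dsp* and *Tdo2* fall as the marker sum rises (rho = -0.59 and -0.61) and *Il16* does not (rho = 0.07).

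Among the other 11 marker lists, mossy cell markers rose with the granule cell genes. By rho, 9 of 10 members passed with the mossy cell sum, with a highest rho of 0.74 (*C1ql2*) and the lowest, -0.22, for *Il16*. By the same measure 7 of 10 passed with the sum of immature granule neuron markers, from -0.43 for *Il16* to 0.60 for *C1ql2*. *Il16* was among these 7, with a negative rho, and the others were positive. With 3 general neuronal markers 9 of 10 passed, from -0.65 for *Calb1* to 0.27 for *Il16*, so the mature granule cell genes were lower where general neuronal transcripts were higher. Pearson's r gave the same counts for these 3 lists. No share of all genes that pass is set beside these counts, or beside those with the oligodendrocyte sum. CA1 pyramidal markers gave 3 of 10 by rho and 5 by r, and interneuron markers 2 and 3, all of them negative. Choroid plexus markers gave 2 by rho, *C1ql2* (-0.38) and *Il16* (0.49), and 8 by r, which were all negative. With CA2 and CA3 pyramidal, astrocyte, microglia, thalamus and blood markers 0 of 10 passed by either. *Il16* had rho = 0.49 (adjusted permutation p = 0.001) but r = 0.24 with the choroid plexus sum, and rho = 0.47 without the 6 mice high in those markers. Without those mice the counts passing by rho were 7 for mossy cell, 3 for immature granule neuron, 7 for general neuronal, 0 for CA1 pyramidal, 0 for interneuron and 1 each for choroid plexus, thalamus and blood markers. By r they were 9, 6, 9, 3, 0 and then 2, 4 and 0, with 1 for CA2 and CA3 markers. For housing, edgeR called 1 gene of these 11 lists, *Rgs14* of the CA2 and CA3 list (-0.20, SE 0.039, edgeR adjusted p = 0.00222). Every marker of the 12 lists had a count in at least 1 mouse.

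The technical measures were examined for the same 54 mice. The log2 total gene count passed with 0 of 10 members, with rho from -0.20 to 0.01. The share of read pairs assigned to no gene passed with *Prox1* (rho = 0.57, r = 0.53, adjusted permutation p = 0.0004 for rho and 0.0012 for r), *Maml2* (rho = 0.41, r = 0.47, adjusted permutation p = 0.0212 for rho and 0.0042 for r) and, by rho alone, *Pdzd2* (rho = 0.37, r = 0.35, adjusted permutation p = 0.0372 for rho and 0.0601 for r). Without the 2 mice farthest from the median share r was 0.55, 0.45 and 0.39. *Dsp* and *Tdo2* did not pass, with rho of 0.23 and 0.24. By group the median share was 23.54% in SH controls, 25.01% in RES and 23.89% in SUS mice raised in SH. In the respective EE groups it was 23.68%, 22.80% and 23.09%, with the summed runs of an EE control entered separately. It ran from 21.88% to 28.79% in RES mice raised in SH and from 20.52% to 25.74% in those raised in EE. Whether this share had a part in the housing difference among RES mice was not tested.

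By a fixed rule, the gene outside the set whose level followed each member most closely over 54 mice was also read out, as a description without a test. The highest rho was that of *Dsp* with *Ryr1* (0.92), the ryanodine receptor of the sarcoplasmic and endoplasmic reticulum, followed by *Prox1* with *Celf1* (0.91), an RNA-binding protein, and *Calb1* with *Pip5k1b* (0.90), a phosphoinositide kinase. *Tdo2* was closest to *Vrk1* (0.86), *C1ql3* to *Usp27x* (0.86), *Pdzd2* to *Pitpnm2* (0.85), *Lct* to *Orai2* (0.84), a calcium channel subunit, and *C1ql2* to *Fam84a* (0.83). *Maml2* was closest to *Lrrtm4* (0.77), a gene of the companion list, and *Il16* to *Golm1* (0.82), a Golgi membrane protein. The median rho of a member with all tested genes lay between -0.02 and 0.01. For *Dsp* and *C1ql3*, 5 of the other 9 members were among the 182 genes with the highest rho, and for *Il16* none was. The number was 4 for *Tdo2*, 3 for *Calb1* and *Maml2*, 2 for *C1ql2*, *Lct* and *Pdzd2*, and 1 for *Prox1*.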

How the data were processed

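Ventral dentate gyrus punches gave stranded total RNA libraries, sequenced as read pairs. The authors deposited read counts per gene and library in the layout of STAR, per the file headers and labels, with no normalization. The submitters' processing notes name STAR, Picard and build mm10, and the methods name featureCounts, without versions used here. The column for reverse-stranded reads was used, and both runs of 1 EE control were summed (r = 0.999 between runs on the log2 scale). Symbols and positions came from GENCODE M21 (GRCm38), matching 44585 of 45318 genes. No column of another sample was present.

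Counts were fitted over all genes and 6 groups in edgeR 4.0.16 (quasi-likelihood, TMM, filterByExpr, Benjamini-Hochberg at 0.05, R 4.3.3), with limma 3.58.1 and DESeq2 1.42.0 as alternatives. On simulated counts for SUS against control in SH (18154 genes), edgeR recovered 96.0% of 199 genes changed by 1 on the log2 scale, with 11 others called. Correlations used log2 CPM with a prior count of 2 (scipy 1.17.1, statsmodels 0.14.6), with 100000 permutations. Levels are TMM-scaled CPM. Members and lists were chosen with earlier results of these data known. All 10 members are named, companion genes where edgeR called them, and for each member the closest other protein-coding gene by rho. Alternatives were other size factors, filters, strand, tools, a replicate block, the first run alone, the 4 defeated groups alone and, added later, fits without choroid plexus mice, with marker covariates and without each mouse. p-values measure the spread between mice. Cage mates were counted as separate mice, so the housing p-values do not measure the spread between cages. Replicate numbers in the labels were not taken as pairs in the main fit. One marker gene is not reported by name here.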

Additional observations from a re-analysis of the deposited data

Results flagged for a closer look

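Within 60 combinations of member and group, 2 mice stood apart from the rest of their group by the gap to the nearest mouse relative to the group's range, where chance gives about 1 in 20. *C1ql2* was 163.0 CPM in replicate 5 of the RES mice raised in SH, next to 124.1 CPM, a gap of 0.599 of the range. Without it the group mean was 115.3 CPM in place of 122.1 CPM. *C1ql3* was 224.5 CPM in replicate 1 of the SH controls, next to 188.9 CPM, a gap of 0.526 of the range, and the mean of the other 9 was 176.0 CPM.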

How the results depend on the processing

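For housing over all phenotypes, edgeR called 2 of 10 members, and 2 with RLE size factors, plain CPM, no filter, a filter of 1 CPM in 7 mice, unstranded counts, limma-voom, the first run alone and without the choroid plexus mice. DESeq2 called 4, the fit with marker covariates 0, and leaving out each mouse gave 1 to 4 (all genes: 254 to 735, against 442). The 4 came without replicate 3 of the SH controls, replicate 3 of the SUS mice raised in SH or replicate 8 of the EE controls. In RES mice DESeq2 called 1 member for housing, against 0. Every other count of members called at the adjusted threshold kept its value under the alternatives run. At an unadjusted p under 0.05 the edgeR housing count of 6 became 7 with unstranded counts, the replicate block and without the choroid plexus mice. It became 3 with marker covariates. With marker covariates the housing estimates of *Prox1* (0.0159), *Pdzd2* (0.0357) and *C1ql2* (0.0979) changed sign. All genes called for housing numbered 242 without the filter, 680 by DESeq2 and 41 with the covariates. Of 45 member pairs 38 passed by rho, and 37 or 38 under each alternative. By r 38 passed, and 39 without the choroid plexus mice. The replicate block gave 2 members for housing and 581 genes, and changed no count of members called at the adjusted threshold. Same-numbered mice of different groups had a median correlation of deviations of 0.026 (-0.258 to 0.440), against -0.004 for differently numbered mice. It was above 0.1 in 32 of 126 same-numbered pairs and in 175 of 1086 others. Of 54 mice, 11 were closest to one of their own number. The labels do not say what the numbers stand for, and they were not taken as pairs in the main fit. Standard errors for housing ran from 0.041 to 0.079. Estimates well beyond their standard error could still fail the adjusted threshold of edgeR, as for *Calb1* (-0.18, SE 0.058) and *Maml2* (-0.17, SE 0.052). No batch label was available to test.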
